A study of Mus musculus with 89 samples.

Results

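The Hedgehog pathway was followed through 9 core genes, Shh, Ptch1, Hhip, Smo, Kif7, Sufu, Gli1, Gli2 and Gli3, in the forebrain of trisomic and euploid mouse embryos. Each gene was taken where a probe set carried its symbol and no other, which gave 9 probe sets, 1 per gene, of 22206 on the array. The data are log2 signals of Clariom S high throughput arrays, with 1 array for each of 89 embryos at embryonic day 18.5. In Ts65Dn mice an extra chromosome links distal chromosome 16, rich in orthologues of human chromosome 21 genes, with a proximal piece of chromosome 17, and Ts66Yah mice carry the chromosome 16 part without the chromosome 17 part. The 23 Ts65Dn embryos were compared with 18 euploid embryos of the same colony (EupTs65Dn), and the 24 Ts66Yah embryos with 24 euploid embryos of theirs (EupTs66Yah). Both strains were kept on a mixed B6 X C3H background, none of the embryos was treated, and each colony contributed 6 litters, so that littermates share a dam. In the Ts65Dn colony the extra chromosome came through the mother, because Ts65Dn males are infertile. The Ts66Yah colony descends from a few founder females and was expanded by in vitro fertilization. All 9 genes matched the RefSeq gene table, and 0 of them lies on chromosome 16 or 17, so that any change in them would be away from the extra gene copies.

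Hedgehog ligands are secreted proteins that bind the receptor Patched. Without ligand Patched keeps Smoothened out of the primary cilium and the Gli proteins are processed into repressors, while ligand binding frees Smoothened, which turns the Gli proteins into activators. In the forebrain Sonic hedgehog patterns the ventral telencephalon and later acts on progenitors of interneurons and oligodendrocytes, and a weakened response to it has been described in cerebellar granule cell precursors of Ts65Dn mice. Ptch1, Hhip and Gli1 are themselves induced by the pathway, so their transcripts are commonly read as its output.

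The promoters of the 2 inhibitory receptors among these induced genes are shown because the results turn on Hhip, and Ptch1 is the member with the smallest p between litters. The RefSeq table of GRCm38.p6 holds 7 of the 9 promoters, each from 250 bases before to 50 bases after the start of the gene. Each was searched on both strands for GACCACCCA (on the other strand TGGGTGGTC), the consensus bound by Gli proteins, and capitals mark the closest match. Where several matches were equally close, as in Ptch1, only the one nearest the 5′ end is marked. Hhip lies on the minus strand at chr8:80057959-80058258 and Ptch1 on the minus strand at chr13:63565686-63565985, and both are written from 5′ to 3′.
Hhip: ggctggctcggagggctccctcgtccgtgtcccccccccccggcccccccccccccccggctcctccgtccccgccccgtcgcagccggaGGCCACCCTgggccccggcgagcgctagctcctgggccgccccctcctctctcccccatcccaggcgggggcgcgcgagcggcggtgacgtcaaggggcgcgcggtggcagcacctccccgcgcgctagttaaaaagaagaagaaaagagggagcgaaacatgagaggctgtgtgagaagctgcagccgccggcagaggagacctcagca
Ptch1: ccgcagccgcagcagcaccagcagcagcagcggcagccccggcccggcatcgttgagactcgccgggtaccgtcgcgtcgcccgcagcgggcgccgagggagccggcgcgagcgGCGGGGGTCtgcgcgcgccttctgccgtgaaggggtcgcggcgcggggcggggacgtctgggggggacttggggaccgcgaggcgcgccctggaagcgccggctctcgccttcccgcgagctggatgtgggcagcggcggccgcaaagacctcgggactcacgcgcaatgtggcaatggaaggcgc
The closest match in the Hhip promoter, GGCCACCCT, had 2 mismatches, and that in the Ptch1 promoter, GCGGGGGTC on the other strand, had 3. No member had a match with at most 1 mismatch, which 6.74% of 32841 promoters had. At most 2 mismatches were found for Hhip, Smo, Gli2 and Kif7, 4 of the 7, against 58.3% of all promoters. These matches describe letters within this window alone.

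The arrays of the 2 colonies lay at different levels, with array means of 5.26 to 5.33 in Ts65Dn and 5.29 to 5.31 in EupTs65Dn, against 6.37 to 6.40 in Ts66Yah and 6.35 to 6.41 in 23 of the 24 EupTs66Yah arrays. Levels are therefore compared within a colony. The remaining EupTs66Yah array, titled WT18-N9-Brain, had a mean of 6.05 and a standard deviation over probe sets of 1.13, against 2.23 to 2.39 in the others of its group, and the Ts66Yah changes of the named genes are given with and without it, while litters and correlations are given without it. The mean of 29 genes within the triplicated chromosome 16 part, used as a check of the labels, was 8.35 ± 0.114 in Ts65Dn and 7.91 ± 0.0462 in EupTs65Dn (SD, n = 23 and 18), and 9.27 ± 0.151 in Ts66Yah and 8.86 ± 0.121 in EupTs66Yah without WT18-N9-Brain (SD, n = 24 and 23), or 8.74 ± 0.564 with it (SD, n = 24). By this check 4 arrays lay nearer to the other genotype of their colony, and in 17 arrays Y-linked genes went against the labelled sex. No label was changed. Of 8 forebrain markers, 8 in the Ts65Dn colony and 7 in the Ts66Yah colony were at or above the median signal of all probe sets. Of 9 midbrain and hindbrain markers, 0 in the Ts65Dn colony and 4 in the Ts66Yah colony were. The forebrain markers thus do not show that the dissected tissue was alike in the 2 colonies. The share of midbrain and hindbrain tissue in the samples was not tested.

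Trisomy was not accompanied by a change of any of the 9 genes that passed the test. In limma fits across all probe sets, with Benjamini-Hochberg adjustment and a threshold of 10%, 0 of 9 members passed in Ts65Dn, where 0.491% of all probe sets did. In Ts66Yah, 0 of 9 passed with all arrays, against 0.171% of all probe sets, and 0 of 9 without WT18-N9-Brain, against 0.932%. Hhip was the single member with an unadjusted p under 0.05 in each of these comparisons, 1 of 9, where 5.79% of all probe sets had one in Ts65Dn, 10.2% in Ts66Yah with all arrays and 12.1% without WT18-N9-Brain. The groups overlapped for each of the 9 genes. They also overlapped for Olig1 and Olig2, which lie in the triplicated part of chromosome 16. Overlap alone thus does not show that a gene is unchanged. In Ts65Dn 3 means were higher and 6 lower than in EupTs65Dn, with a median log2 change of -0.032 beside -0.0021 over all probe sets. In Ts66Yah 8 means were higher and 1 lower than in EupTs66Yah with all arrays, with a median of 0.081 beside 0.043 over all probe sets, and 9 were higher without WT18-N9-Brain, with a median of 0.065 beside 0.0044. The shares of higher means over all probe sets are given below with the wider pathway. Without WT18-N9-Brain the changes of Ptch1 (0.015) and Shh (0.019) were near 0 and turned sign in 4 of 21 and 5 of 20 refits. The embryos are separate animals, but embryos of a litter share a dam and its handling, so the p-values rest partly on that shared spread. RNA came from whole forebrain tissue, in which fewer cells of a type and less RNA per cell cannot be told apart.

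**Figure D1:**
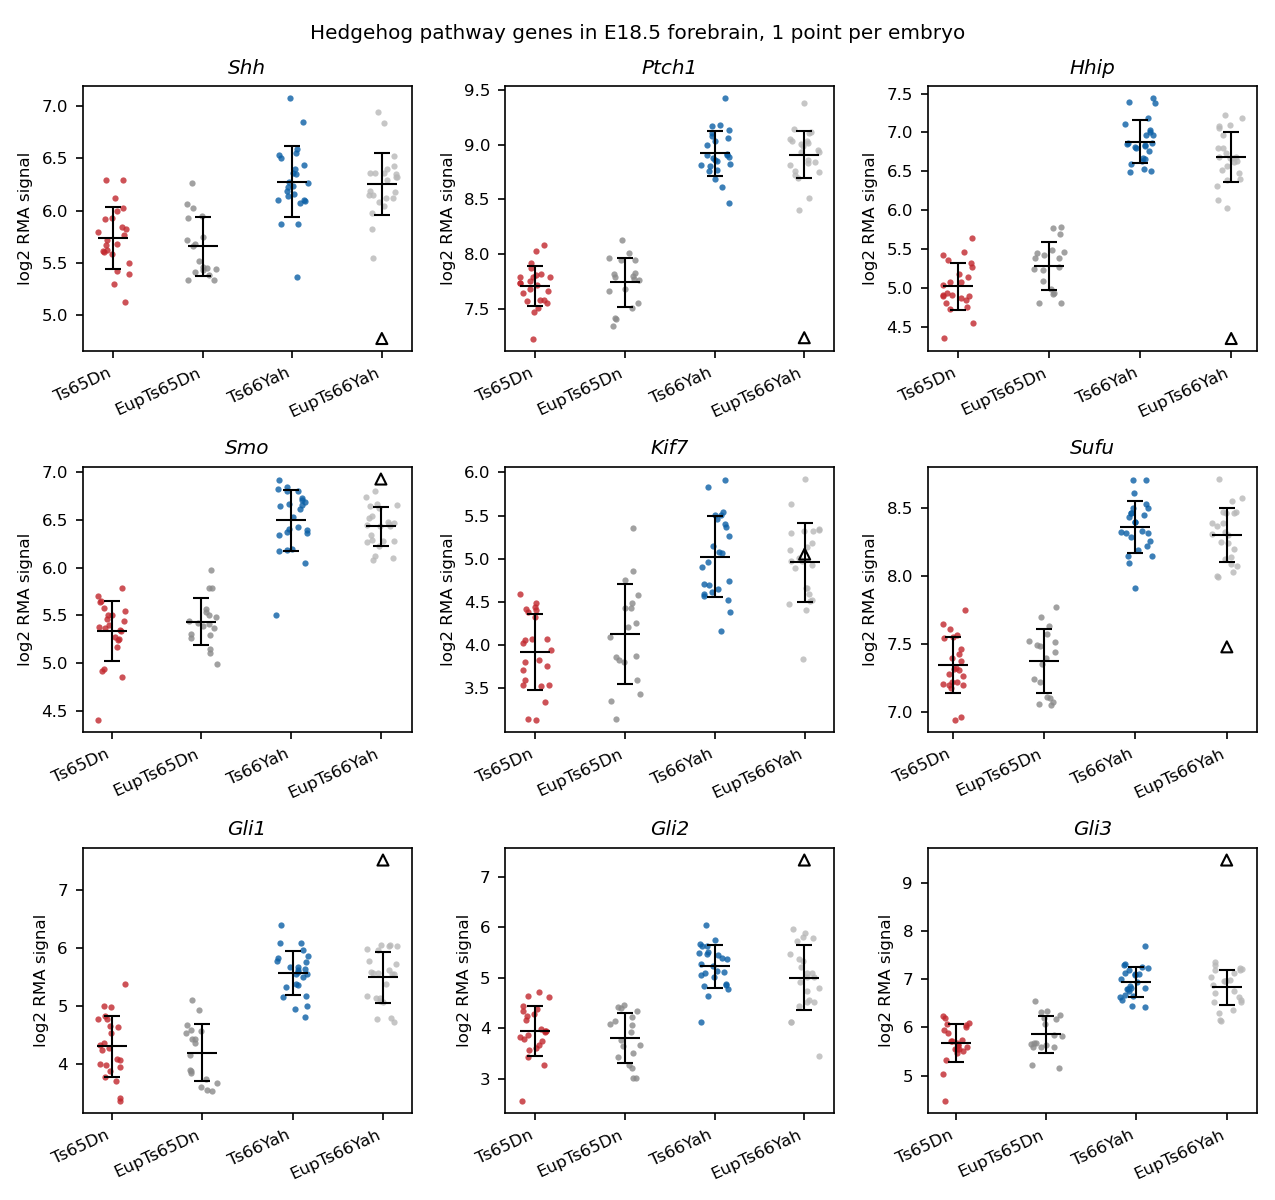
Log2 RMA signal of each of the 9 Hedgehog pathway genes in every embryo, by group (Ts65Dn, n = 23; EupTs65Dn, n = 18; Ts66Yah, n = 24; EupTs66Yah, n = 24), with bars for mean ± SD. The open triangle is WT18-N9-Brain and is left out of the bars. Within each colony the points of trisomic and euploid embryos overlap for every gene.

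Among the induced inhibitors, Hhip, a membrane protein that binds Hedgehog ligands and keeps them from Patched, had a mean that was lower in Ts65Dn and higher in Ts66Yah than in the euploid embryos of the same colony. Hhip ran from 4.36 over a median of 4.94 to 5.64 in Ts65Dn, against 4.81, 5.33 and 5.79 in EupTs65Dn (lowest, median and highest log2 signal). In Ts66Yah it ran from 6.49 over 6.84 to 7.44, against 6.02, 6.68 and 7.23 in EupTs66Yah without WT18-N9-Brain, in which Hhip was 4.35. Of the Ts65Dn embryos 19 of 23 lay below the EupTs65Dn median, and of the Ts66Yah embryos 17 of 24 lay above the EupTs66Yah median. The log2 change of Hhip was -0.27 in Ts65Dn (SE 0.095, 95% interval -0.46 to -0.073), a ratio of 0.832, with p = 0.0079 and an adjusted p of 0.54. In Ts66Yah it was 0.20 without WT18-N9-Brain (SE 0.086, 95% interval 0.023 to 0.37), a ratio of 1.15, with p = 0.027 and an adjusted p of 0.34. With all arrays the Hhip change in Ts66Yah was 0.29 (SE 0.13, p = 0.026, adjusted p = 0.44). None of these passed the threshold.

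The difference between the effects of the 2 trisomies on Hhip was fitted directly, as the change in Ts65Dn minus the change in Ts66Yah. It was -0.46 on the log2 scale without WT18-N9-Brain (SE 0.13, 95% interval -0.72 to -0.21), with p = 0.00056 and an adjusted p of 0.24, and -0.56 with all arrays (SE 0.17), with p = 0.0011 and an adjusted p of 0.61. The difference therefore missed the 10% threshold in both fits. The difference of effects passed for 0 of 9 members in both, against 0.149% of all probe sets without WT18-N9-Brain and 0.00901% with all arrays. Hhip was also the 1 of 9 with an unadjusted p under 0.05 there, against 7.14% and 7.05% of all probe sets. Leaving out litter TS113, in which the mean of Hhip was 0.13 higher in Ts65Dn than in EupTs65Dn embryos, gave a Hhip difference of -0.54 with an adjusted p of 0.098, which is past the threshold. TS113 was the 1 of 6 litters of its colony in which Hhip went this way. Its removal therefore gives no separate support for a difference. The other alternatives that keep the adjusted p as the criterion did not pass. The series also used a marginal criterion, which takes ratios under 0.8 or over 1.2 whose unadjusted p is under 0.01. By it 1 of 9 members, Hhip, passed in the difference of effects, against 1.45% of all probe sets without WT18-N9-Brain and 1.41% with all arrays. Within the colonies 0 of 9 passed it, against 1.11% of all probe sets in Ts65Dn, 2.13% in Ts66Yah with all arrays and 1.9% without WT18-N9-Brain.

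Litters showed the same order in most but not all cases. The mean of Hhip was lower in Ts65Dn than in EupTs65Dn littermates in 5 of 6 litters, with differences from -0.48 in TS18 to 0.13 in TS113. It was higher in Ts66Yah than in EupTs66Yah littermates in 4 of 6 litters without WT18-N9-Brain, with differences from -0.13 in WT13 to 0.55 in WT15. Some litter means rest on few embryos. The litters that went the other way in the Ts66Yah colony held 1 euploid embryo (WT11) and 2 (WT13), and TS42 held 2. The counts of litters were not particular to Hhip. Ptch1 and Gli3 were also lower in 5 of 6 litters in Ts65Dn and higher in 4 of 6 in Ts66Yah. Kif7 was lower in 5 of 6 litters in Ts65Dn and higher in 3 of 6 in Ts66Yah. With litter as a block the log2 change of Hhip was -0.25 in Ts65Dn (p = 0.013) and 0.19 in Ts66Yah without WT18-N9-Brain (p = 0.039), with an adjusted p of 0.68 in Ts65Dn and 0.40 in Ts66Yah from limma. When each litter was left out in turn, the Hhip change was -0.35 to -0.22 in Ts65Dn, and 0.13 to 0.25 in Ts66Yah without WT18-N9-Brain.

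**Figure D2:**
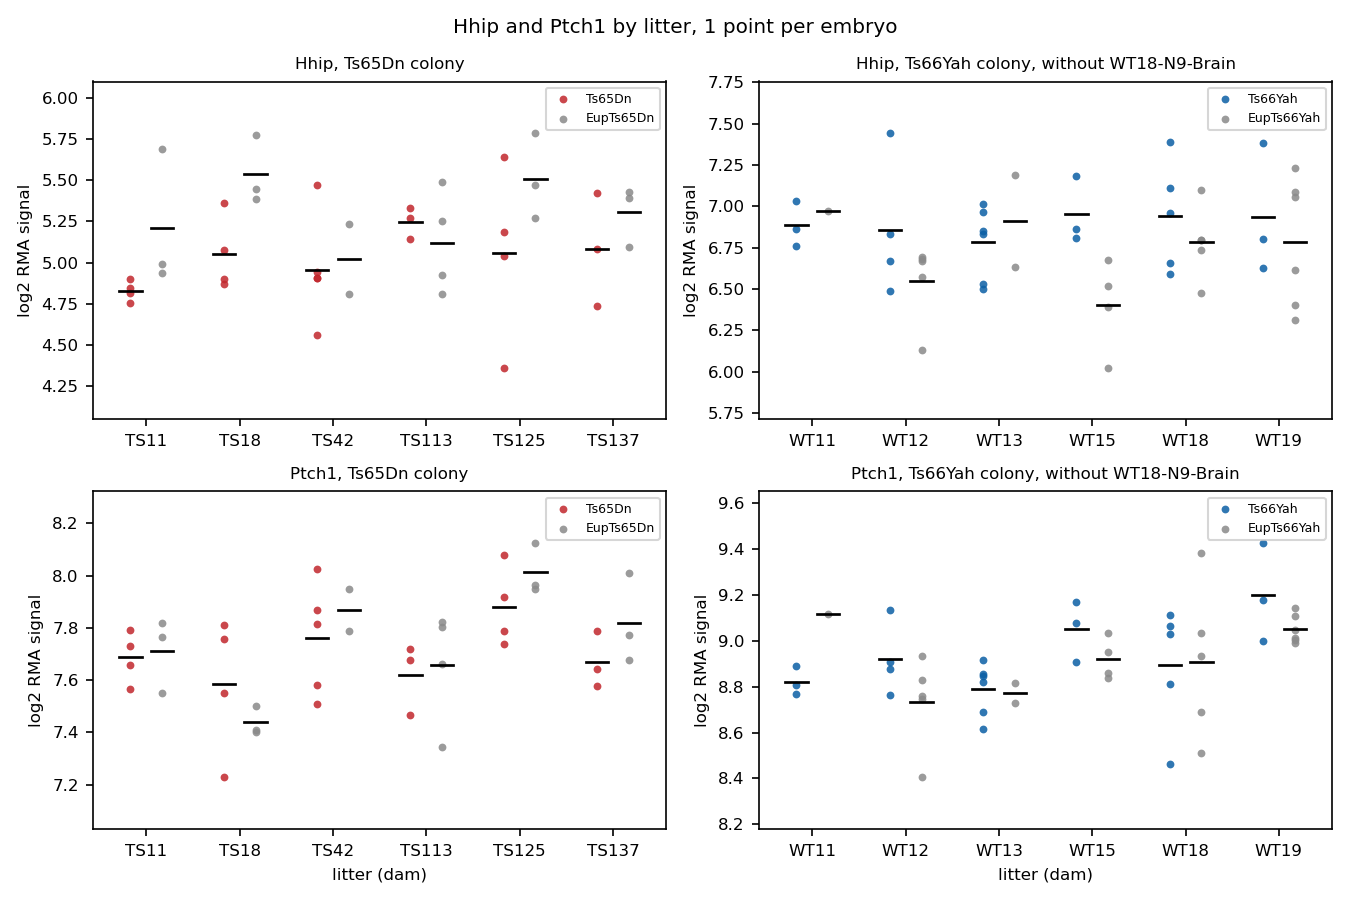
Log2 RMA signal of Hhip (top) and Ptch1 (bottom) in each embryo by litter, with the Ts65Dn colony on the left and the Ts66Yah colony without WT18-N9-Brain on the right. Trisomic embryos stand left of euploid embryos in each litter and short lines are the means. The means of Hhip and of Ptch1 are each lower in Ts65Dn embryos in 5 of 6 litters and higher in Ts66Yah embryos in 4 of 6.

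Markers of other cell types and regions gave the following values beside Hhip. Of the 8 vascular and meningeal markers, 0 passed the test in either colony, and their mean level per embryo ran from 6.59 over 6.90 to 7.06 in Ts65Dn against 6.50, 6.82 and 7.03 in EupTs65Dn (lowest, median, highest). It ran from 7.67 over 7.92 to 8.06 in Ts66Yah against 7.46, 7.78 and 7.99 in EupTs66Yah without WT18-N9-Brain. Of these 8 markers 6 had a higher mean in Ts65Dn, where 49.0% of all probe sets did, and 7 in Ts66Yah without WT18-N9-Brain, where 51.6% did, or 8 with all arrays, where 58.6% did. The vascular markers with a lower mean in Ts65Dn were Pdgfrb and Cldn5. Pdgfrb changed by -0.17 in Ts65Dn and by 0.080 in Ts66Yah without WT18-N9-Brain, the same directions as Hhip. Cldn5 changed by -0.017 in Ts65Dn and by -0.13 in Ts66Yah without WT18-N9-Brain. The 9 radial glia markers held 1 call, Vim, an intermediate filament gene of progenitors and of many other cells, which was higher in Ts66Yah without WT18-N9-Brain by 0.19 on the log2 scale with an adjusted p of 0.085. With all arrays the change of Vim was 0.42 (SE 0.23) with an adjusted p of 0.51, which does not pass. Of the 8 forebrain, 10 ventral forebrain, 8 astrocyte, 7 oligodendrocyte precursor, 10 diencephalic, 9 midbrain and hindbrain and 6 choroid plexus markers measured, and the 1 blood marker, 0 passed in either colony. Below the lower quartile of signal in a colony were Olig3 of the oligodendrocyte precursor list and Atoh1, Hoxa3 and Pax2 of the midbrain and hindbrain list. The directions of Hhip were not particular to Pdgfrb among the markers. Hopx of the radial glia list changed by -0.11 in Ts65Dn and by 0.23 in Ts66Yah without WT18-N9-Brain. Lhx6 of the ventral forebrain list changed by -0.19 in Ts65Dn and by 0.18 in Ts66Yah without that array. Other markers went the opposite way, such as Pomc of the diencephalic list, with 0.30 in Ts65Dn and -0.20 in Ts66Yah. The part of cell composition in the Hhip values was not tested.

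Ptch1, the receptor that holds Smoothened inactive and a standard readout of the pathway, did not differ between genotypes beyond the spread of the embryos. It ran from 7.23 over 7.73 to 8.08 in Ts65Dn, against 7.35, 7.78 and 8.13 in EupTs65Dn, and from 8.46 over 8.90 to 9.43 in Ts66Yah, against 8.40, 8.93 and 9.38 in EupTs66Yah without WT18-N9-Brain (lowest, median, highest). The ranges lie almost on each other in both colonies. The log2 change was -0.032 in Ts65Dn (95% interval -0.16 to 0.10, adjusted p = 1.00) and 0.015 in Ts66Yah (95% interval -0.11 to 0.14, adjusted p = 0.95), which in ratios is 0.892 to 1.07 in Ts65Dn and 0.926 to 1.10 in Ts66Yah. WT18-N9-Brain, at 7.24, was the lowest of its group by more than 1 log2 unit, and with it the change was 0.084 (SE 0.095).

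Gli1, a transcriptional activator that is itself a direct target, varied more between embryos. It ran from 3.38 over 4.28 to 5.39 in Ts65Dn, against 3.54, 4.27 and 5.11 in EupTs65Dn, and from 4.81 over 5.60 to 6.40 in Ts66Yah, against 4.73, 5.57 and 6.06 in EupTs66Yah without WT18-N9-Brain. The medians differed by far less than the spread within a group. The log2 change was 0.11 in Ts65Dn (95% interval -0.20 to 0.42, adjusted p = 0.98) and 0.076 in Ts66Yah (95% interval -0.16 to 0.31, adjusted p = 0.83). WT18-N9-Brain was the highest of its group at 7.52, and with it the change in Ts66Yah was -0.0084. In Ts65Dn the means of Hhip and Ptch1 were lower and that of Gli1 higher than in EupTs65Dn, while in Ts66Yah without WT18-N9-Brain the means of all 3 were higher than in EupTs66Yah.

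Shh, the ligand, ran from 5.13 over 5.72 to 6.30 in Ts65Dn, against 5.33, 5.59 and 6.27 in EupTs65Dn, and from 5.36 over 6.25 to 7.08 in Ts66Yah, against 5.55, 6.29 and 6.95 in EupTs66Yah without WT18-N9-Brain. Its log2 change was 0.084 in Ts65Dn (95% interval -0.098 to 0.27, adjusted p = 0.97) and 0.019 in Ts66Yah (95% interval -0.16 to 0.20, adjusted p = 0.96). In Ts65Dn 17 of 23 embryos were above the EupTs65Dn median, and in Ts66Yah 10 of 24 were above that of EupTs66Yah. With WT18-N9-Brain, the lowest of its group at 4.78, the change in Ts66Yah was 0.081.

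Smo, the membrane protein that passes the signal on, ran from 4.41 over 5.38 to 5.79 in Ts65Dn, against 5.0, 5.41 and 5.97 in EupTs65Dn. In Ts66Yah it ran from 5.51 over 6.57 to 6.92, against 6.08, 6.45 and 6.80 in EupTs66Yah without WT18-N9-Brain. The lowest embryo was trisomic in both colonies while the rest overlapped. The log2 change of Smo was -0.096 in Ts65Dn (95% interval -0.28 to 0.085, adjusted p = 0.97) and 0.064 in Ts66Yah (95% interval -0.094 to 0.22, adjusted p = 0.78), or 0.043 with all arrays.

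Of the cytoplasmic regulators, Sufu, which holds Gli proteins inactive, ran from 6.94 over 7.32 to 7.75 in Ts65Dn, against 7.05, 7.42 and 7.77 in EupTs65Dn, and from 7.91 over 8.36 to 8.70 in Ts66Yah, against 7.99, 8.31 and 8.71 in EupTs66Yah without WT18-N9-Brain. Together with Ptch1 it had the smallest spread within groups, and its log2 change was -0.029 in Ts65Dn (95% interval -0.17 to 0.11, adjusted p = 1.00) and 0.061 in Ts66Yah (95% interval -0.056 to 0.18, adjusted p = 0.71). Kif7, a kinesin that organises Gli regulation at the tip of the cilium, ran from 3.14 over 3.94 to 4.59 in Ts65Dn, against 3.15, 4.15 and 5.36 in EupTs65Dn. In Ts66Yah it ran from 4.17 over 5.02 to 5.91, against 3.84, 4.97 and 5.92 in EupTs66Yah without WT18-N9-Brain. The log2 change of Kif7 was -0.21 in Ts65Dn, with a 95% interval from -0.52 to 0.097 (adjusted p = 0.93), and 0.065 in Ts66Yah, with an interval from -0.20 to 0.33 (adjusted p = 0.88). These intervals are wide: a Kif7 ratio as low as 0.698 lies within that of Ts65Dn. With all arrays the changes in Ts66Yah were 0.095 for Sufu and 0.061 for Kif7.

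Gli2, the main activator, and Gli3, the main repressor of the family, had means that differed in opposite directions in Ts65Dn, within the spread of the embryos. Gli2 ran from 2.57 over 3.94 to 4.72 in Ts65Dn, against 3.01, 3.85 and 4.46 in EupTs65Dn, and from 4.13 over 5.25 to 6.05 in Ts66Yah, against 3.45, 5.03 and 5.97 in EupTs66Yah without WT18-N9-Brain. Gli3 ran from 4.49 over 5.68 to 6.23 in Ts65Dn, against 5.16, 5.76 and 6.55 in EupTs65Dn, and from 6.42 over 6.90 to 7.69 in Ts66Yah, against 6.14, 6.96 and 7.35 in EupTs66Yah without WT18-N9-Brain. All of these ranges overlap widely. The log2 change of Gli2 was 0.15 in Ts65Dn (SE 0.15, adjusted p = 0.97) and 0.23 in Ts66Yah (SE 0.15, adjusted p = 0.57). The log2 change of Gli3 was -0.17 in Ts65Dn (SE 0.12, adjusted p = 0.93) and 0.11 in Ts66Yah (SE 0.098, adjusted p = 0.68). The difference of effects without WT18-N9-Brain was -0.29 for Gli3 (SE 0.15, p = 0.069, adjusted p = 0.73), and -0.18 with all arrays (SE 0.19, p = 0.37, adjusted p = 0.76). WT18-N9-Brain was the highest of its group for both, at 7.34 for Gli2 and 9.47 for Gli3, and with it the changes in Ts66Yah were 0.13 for Gli2 and 0.0024 for Gli3.

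**Figure D3:**
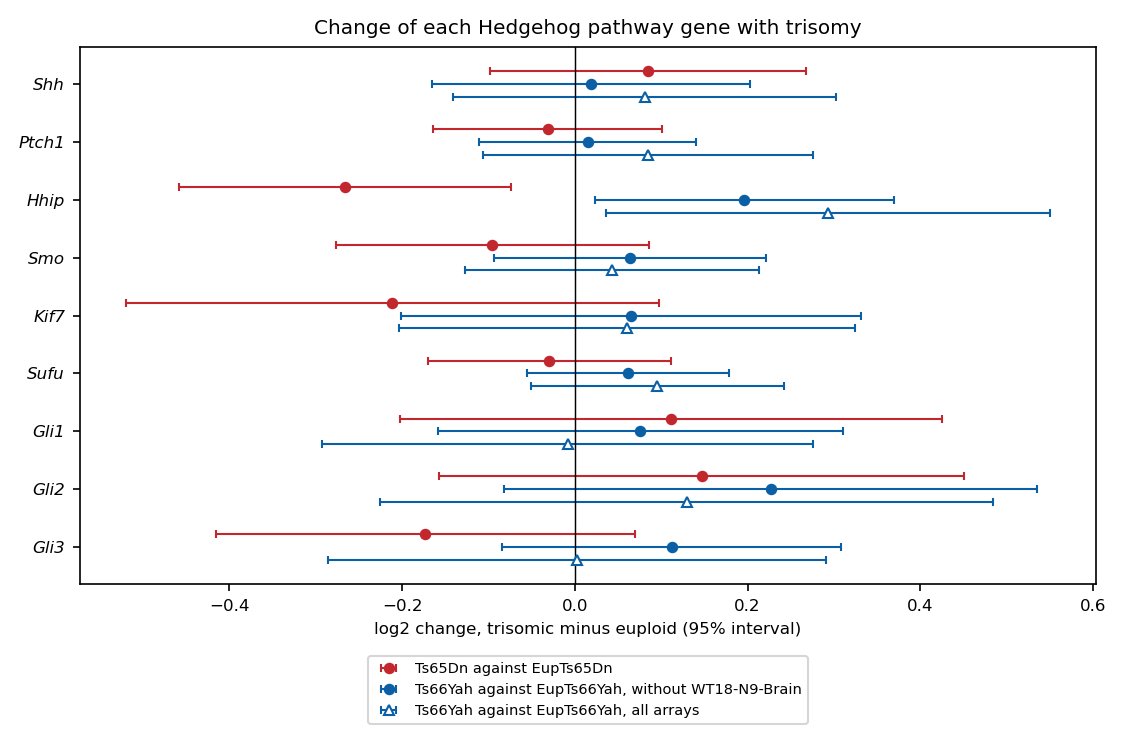
Log2 change, trisomic minus euploid, of each Hedgehog pathway gene with its 95% interval from limma, for Ts65Dn (red), Ts66Yah without WT18-N9-Brain (filled blue) and Ts66Yah with all arrays (open triangles). The intervals of 8 of 9 genes include 0 in each comparison, and those of Hhip lie on opposite sides of 0 in the 2 colonies.

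The precision differed between the members. The SE of the log2 change over the 9 genes was 0.066 to 0.16 in Ts65Dn, and 0.058 to 0.15 in Ts66Yah without WT18-N9-Brain. The widest ratios that the 95% intervals of the members allow were 0.698 for Kif7 and 1.37 for Gli2 in Ts65Dn, and 0.870 for Kif7 and 1.45 for Gli2 in Ts66Yah. All 9 genes were at or above the lower quartile of mean signal in both colonies and 5 of 9 at or above the median in each. The standard deviation within groups lay between 0.204 and 0.509 in the Ts65Dn colony and between 0.194 and 0.542 in the Ts66Yah colony.

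Litters were then compared with genotype as a covariate. The F-test over litters passed for 0 of 9 members in either colony, against 0.378% of all probe sets in the Ts65Dn colony and 0.0901% in the Ts66Yah colony without WT18-N9-Brain. Ptch1 had the smallest p of the 9 in both, with F = 4.55 (p = 0.0024, adjusted p = 0.19) in the Ts65Dn colony and F = 3.29 (p = 0.013, adjusted p = 0.31) in the Ts66Yah colony. An unadjusted p under 0.05 was found for 10.7% of all probe sets in the Ts65Dn colony, where 1 member, Ptch1, had it, and for 11.5% in the Ts66Yah colony, where Ptch1 and Kif7 had it. Relative to its genotype, Ptch1 was lowest in litter TS18, by 0.20, and highest in TS125, by 0.21, in the Ts65Dn colony. It was lowest in WT13, by 0.13, and highest in WT19, by 0.19, in the Ts66Yah colony. Kif7 stood 0.44 above its genotype means in litter WT15 and 0.22 below them in WT13 (F = 2.96, p = 0.022, adjusted p = 0.35). Gli1 in the Ts65Dn colony ranged over litters from -0.23 in TS125 to 0.44 in TS137 (adjusted p = 0.64).

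The members hardly varied together from embryo to embryo. After each value was centred on its group mean, the median Pearson correlation over the 36 pairs of members was 0.037 over the 41 arrays of the Ts65Dn colony and 0.059 over 47 arrays of the Ts66Yah colony. A correlation above 0.3 was found for 1 pair in the first and 2 pairs in the second, and 0 pairs had it in both. A correlation below -0.3 was found for 2 pairs in the Ts65Dn colony and 0 in the Ts66Yah colony. Shh and Gli2 correlated at -0.37 in the Ts65Dn colony and at -0.12 in the Ts66Yah colony, and Ptch1 and Kif7 at -0.37 in the Ts65Dn colony and at 0.079 in the Ts66Yah colony. Ptch1 and Gli3 correlated at 0.47 in the Ts65Dn colony and at -0.051 in the Ts66Yah colony, while Gli2 and Gli3 correlated at 0.030 in the Ts65Dn colony and at 0.37 in the Ts66Yah colony. The pair with the highest lower value was Gli2 and Hhip, at 0.17 in the Ts65Dn colony and 0.31 in the Ts66Yah colony. These correlations are descriptions over arrays that share litters and a normalization.

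The probe sets most like each member were found by the lower of its correlations in the 2 colonies, over the same 41 and 47 arrays. Hhip was most like C2cd2 (0.43), Enpp5 (0.42) and Pakap (0.35). Ptch1 was most like Nop10 (0.52), Ctdsp1 (0.49) and Peg10 (0.48), Gli1 most like Nyap1 (0.41), Grap2 (0.39) and Fn1 (0.36), and Shh most like Gpr17 (0.36), Hap1 (0.35) and Nrgn (0.35). Smo was most like Kctd18 (0.39), Atp5a1 (0.38) and Igf2r (0.35), Sufu most like Nfia (0.49), Map4 (0.44) and Dpm2 (0.43), and Kif7 most like Vstm2b (0.40), Pkm (0.39) and Stac (0.38). Gli2 was most like Elk3 (0.44), Rftn1 (0.43) and Ndc1 (0.42), and Gli3 most like Rad54l2 (0.52), Atxn2 (0.48) and Ap4m1 (0.47). No other member and no gene of the wider pathway lists was among these 27. The best likeness of each member lay between 0.36 and 0.52, beside a median of 0.44 and quartiles of 0.40 and 0.50 over all probe sets.

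The wider pathway was given by 64 listed symbols for ligand release, reception, cytoplasmic regulation, cilium and targets, of which 57 were measured by a probe set of their own. None of the 57 passed the test in any genotype comparison. With an unadjusted p under 0.05 there were 3 of 57 in Ts65Dn (1 higher and 2 lower), 9 in Ts66Yah with all arrays and 9 without WT18-N9-Brain, all of these 9 higher in Ts66Yah in both cases. Over all probe sets these shares were 5.79% in Ts65Dn, 10.2% in Ts66Yah with all arrays and 12.1% without WT18-N9-Brain. Means were higher in Ts65Dn for 24 of 57 and higher in Ts66Yah for 50 with all arrays and for 42 without WT18-N9-Brain. Over all probe sets the share of higher means was 49.0% in Ts65Dn, 58.6% in Ts66Yah with all arrays and 51.6% without WT18-N9-Brain. The median log2 change was -0.018 in Ts65Dn, and in Ts66Yah it was 0.12 with all arrays and 0.040 without WT18-N9-Brain. The same medians over all probe sets are given above for the members. The other listed symbols were not analysed here.

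By role, the gene with the smallest p is named for each list. Among 9 ligand and release genes it was Ihh, another Hedgehog ligand, in Ts65Dn, with a mean log2 signal of 2.89 against 3.21 in EupTs65Dn, a change of -0.32 (p = 0.0089, adjusted p = 0.57). In Ts66Yah it was Gpc3, a glypican that competes with Patched for ligand, at 8.42 against 8.23 in EupTs66Yah without WT18-N9-Brain, a change of 0.20 (p = 0.018, adjusted p = 0.31), or 0.26 with all arrays (adjusted p = 0.40). Among 5 reception genes, the ligand co-receptors Cdon and Boc came first. Cdon was 6.79 in Ts65Dn against 6.91 in EupTs65Dn, a change of -0.12 (adjusted p = 0.92), and Boc was 7.82 in Ts66Yah against 7.63 in EupTs66Yah without WT18-N9-Brain, a change of 0.19 (p = 0.011, adjusted p = 0.25), or 0.24 with all arrays (adjusted p = 0.39). Boc was above the EupTs66Yah median in 21 of 24 Ts66Yah embryos. Its change in Ts65Dn was -0.078 (adjusted p = 0.96), and the difference of effects was -0.27 without WT18-N9-Brain (p = 0.0091, adjusted p = 0.52) and -0.32 with all arrays (adjusted p = 0.65).

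Among 14 cytoplasmic regulators the kinase gene Gsk3b was first in Ts65Dn, at 10.49 against 10.59 in EupTs65Dn, a change of -0.10 (p = 0.015, adjusted p = 0.71). The kinase gene Ulk3 was first in Ts66Yah, at 6.12 against 5.79 in EupTs66Yah without WT18-N9-Brain, a change of 0.32 (p = 0.0033, adjusted p = 0.17), or 0.27 with all arrays (adjusted p = 0.44). Among 16 cilium genes, Iqce was first in Ts65Dn with a change of 0.13 (adjusted p = 0.92), and Evc, whose protein binds Smoothened at the base of the cilium, was first in Ts66Yah without WT18-N9-Brain, with a change of 0.24 (p = 0.025, adjusted p = 0.34), or 0.23 with all arrays (adjusted p = 0.47). With all arrays Evc2, its partner in that complex, came first at 0.22 (adjusted p = 0.45), beside 0.19 without WT18-N9-Brain (adjusted p = 0.41). Among 13 targets the Polycomb gene Bmi1 was first in Ts65Dn with a change of -0.11 (adjusted p = 0.92). The transcription factor gene Osr1 was first in Ts66Yah, at 7.49 against 7.08 in EupTs66Yah without WT18-N9-Brain, a change of 0.40 (SE 0.12, p = 0.0017, adjusted p = 0.13), with 20 of 24 Ts66Yah embryos above the euploid median. With all arrays the change of Osr1 was 0.47 (adjusted p = 0.23). Osr1 and Ulk3 passed under some alternatives, which are listed with the processing.

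**Figure D4:**
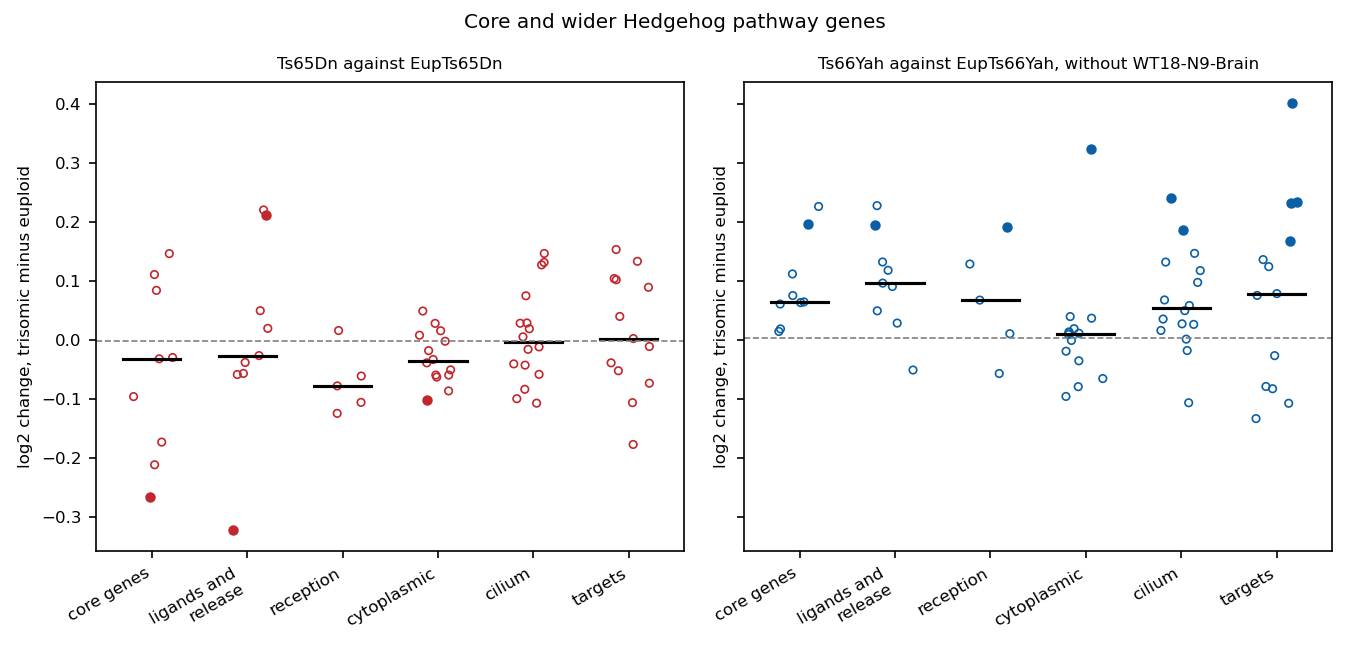
Log2 change, trisomic minus euploid, of the 9 core genes and of the 57 measured genes of 5 wider lists, in Ts65Dn (left) and in Ts66Yah without WT18-N9-Brain (right). Filled points have an unadjusted p under 0.05, black bars are list medians and the dashed line is the median of all probe sets; 0 of these genes passed after adjustment.

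Olig1 and Olig2, oligodendrocyte lineage factors that Hedgehog signalling induces in ventral progenitors, lie in the triplicated part of chromosome 16 in both models. Olig1 averaged 8.01 in Ts65Dn and 7.70 in EupTs65Dn, a log2 change of 0.30 (adjusted p = 0.066), and Olig2 averaged 7.95 in Ts65Dn and 7.72 in EupTs65Dn, a change of 0.23 (adjusted p = 0.25). In Ts66Yah Olig1 averaged 9.03, against 8.76 in EupTs66Yah without WT18-N9-Brain, a change of 0.27 (adjusted p = 0.019), and Olig2 averaged 9.12 in Ts66Yah, against 8.83 in EupTs66Yah, a change of 0.29 (adjusted p = 0.030). With all arrays these changes were 0.37 for Olig1 (adjusted p = 0.27) and 0.51 for Olig2 (adjusted p = 0.43). Olig1 thus passed in Ts65Dn, and both passed in Ts66Yah without WT18-N9-Brain and neither with all arrays.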

How the data were processed

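The authors deposited log2 signals per probe set from RMA, per the submitters' processing notes; RMA corrects background, normalizes by quantiles and summarises the probes of a set. For its version and the array annotation, the sources used here give nothing. RNA of each forebrain was hybridised to 1 Clariom S array, and samples were grouped by the labelled genotype. Of 22206 probe sets 19572 carried 1 gene symbol and 2634 did not; all were fitted without a filter. The number of arrays limits the precision. Sequences are from RefSeq.

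Genotypes were compared within a colony with limma 3.58.1 in R 4.3.3 (lmFit and eBayes, two-sided, Benjamini-Hochberg over all probe sets, threshold 10%). The difference of effects came from a fit of all 4 groups, and litters from an F-test with genotype as covariate. Every adjusted p in the text is from these fits or, where an alternative is named, from the refit under it. The fits were tested on simulated data. Python 3.11.15 and matplotlib 3.10.9 served for sequences and figures.

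The members, lists and tests were chosen with earlier results of these data known. The text names all 9 members, Olig1, Olig2, the 3 genes most like each member, and of each wider list its gene with the smallest p. Vim, as the 1 marker past the threshold, and Pdgfrb, Cldn5, Hopx, Lhx6 and Pomc, for their directions, were named after their values were seen. So were Olig3, Atoh1, Hoxa3 and Pax2, for their low signal. Leaving out WT18-N9-Brain was set by the rule for the members.

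The labels give the dam of each embryo, so litters pair the genotypes. Same-litter deviations correlated with a median of 0.165 (lowest -0.18, highest 0.35) against -0.0093 between litters in the Ts65Dn colony, and 0.142 (lowest -0.043, highest 0.24) against -0.049 in the Ts66Yah colony.

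Alternatives were a litter block, sex as covariate, centring, quantile normalization, filters on signal, array weights, another prior, the unpaired t-test of the series, its marginal criterion, a threshold of 5%, 1 fit of all groups, leaving out arrays that go against their labels and leaving out each litter. Array spread as a covariate was chosen after seeing the data.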

Additional observations from a re-analysis of the deposited data

How the results depend on the processing

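No member passed in a genotype comparison within a colony under any alternative run. Over 999 refits of member changes the sign differed from the reported one in 61, the largest of these values being 0.229 in size, and Hhip kept its sign in all of its refits. For the difference of effects, 1 member, Hhip, passed under the marginal criterion with and without WT18-N9-Brain and 0 to 1 when litters were left out in turn without WT18-N9-Brain. With litter as a replicate block 0 of 9 members passed in every genotype comparison. The adjusted p of the Hhip difference lay between 0.098 and 0.61 without WT18-N9-Brain and between 0.13 and 0.87 with all arrays. Array spread as a covariate gave a Hhip change in Ts66Yah of 0.15 without WT18-N9-Brain and 0.14 with all arrays. Over these refits the unadjusted p of the Hhip change in Ts66Yah reached 0.18 without WT18-N9-Brain and 0.10 with all arrays. It was thus not under 0.05 in all of them. In Ts65Dn it reached 0.046. Of the wider pathway, 1 gene, Osr1, passed in Ts66Yah with all arrays in 1 fit of all 4 groups (adjusted p = 0.099) and under the marginal criterion. Without WT18-N9-Brain, 1 passed among probe sets at or above the median (Osr1, adjusted p = 0.074), 2 under the marginal criterion (Osr1 and Ulk3), and 0 to 1 when litters were left out in turn (Ulk3 without WT11, adjusted p = 0.097; Osr1 without WT19, adjusted p = 0.069). For the difference of effects with all arrays, 1 passed under the marginal criterion (Boc). The cause was not tested. The filter at the median leaves out the 4 members of each colony below it. In the Ts65Dn colony these were Hhip, Gli1, Gli2 and Kif7, so Hhip was not refitted under it in Ts65Dn. In the Ts66Yah colony they were Shh, Gli1, Gli2 and Kif7.

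The log2 changes that turned sign were uncalled and at most 0.229 in size. In Ts66Yah with all arrays, Gli1 was 0.0033 with litter as a block, 0.0019 with sex, 0.067 with array weights and 0.11 with array spread as a covariate, and between -0.080 and 0.099 without single litters. Gli3 was -0.0094 with sex, -0.053 after centring and -0.19 after quantile normalization, and between -0.089 and 0.080 without single litters, and Gli2 lay between -0.0059 and 0.23. After centring Smo was -0.012. After quantile normalization Ptch1 was -0.012, Smo -0.066 and Sufu -0.016. With array spread Shh was -0.012 and Ptch1 -0.019. In Ts66Yah without WT18-N9-Brain, Shh was -0.0052 with sex, -0.025 after centring, -0.022 after quantile normalization and between -0.037 and 0.068 without single litters. Ptch1 was -0.029 after centring, -0.0051 after quantile normalization and between -0.033 and 0.046 without single litters. Gli1 was -0.029 without the arrays at odds with their sex label by Y-linked genes, and with array spread Gli3 was -0.0080 and Kif7 -0.092. In Ts65Dn, leaving out single litters gave -0.016 to 0.20 for Gli1, -0.038 to 0.27 for Gli2, -0.079 to 0.023 for Sufu and -0.16 to 0.0045 for Smo.

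For the difference of effects with all arrays, Shh was -0.014 with the litter block, -0.0092 after quantile normalization, -0.017 without arrays at the other genotype's level and between -0.063 and 0.075 without single litters. Gli3 was 0.028 after quantile normalization. Gli2 was -0.23 without the arrays at odds with their sex label by Y-linked genes, -0.11 with array spread and between -0.17 and 0.15 without single litters, and Gli1 was -0.0080 with array spread and between -0.0071 and 0.21 without single litters. Without WT18-N9-Brain, Gli2 was 0.018 with array weights, 0.10 with array spread and between -0.26 and 0.046 without single litters, Gli1 lay between -0.099 and 0.12 and Ptch1 between -0.081 and 0.0015.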

Other observations

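Between the colonies the signal of the members is given side by side, without a test, because the arrays of the colonies lay at different levels. Over all probe sets the median gap, EupTs66Yah without WT18-N9-Brain minus EupTs65Dn, was 1.06 on the log2 scale, with quartiles of 0.836 and 1.32. Shh had the smallest gap of the 9 genes, 0.60, and Hhip the largest, 1.40. Between the trisomic groups, Ts66Yah minus Ts65Dn, the gap of Hhip was 1.86 and that of Shh 0.53, beside a median of 1.06 over all probe sets.

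Markers of midbrain and hindbrain, such as the engrailed and Hox genes, had a median gap of 2.28 between the same euploid groups. In the Ts66Yah colony 4 of the 9 measured were at or above the median signal, and 0 of 9 in the Ts65Dn colony, where Atoh1, Hoxa3 and Pax2 lay below the lower quartile. Their mean per embryo ran from 4.41 over 5.81 to 6.28 in Ts66Yah and from 4.87 over 5.67 to 6.26 in EupTs66Yah without WT18-N9-Brain (lowest, median, highest). In the Ts65Dn colony it ran from 3.03 over 3.37 to 3.76 in Ts65Dn and from 3.13 over 3.30 to 3.53 in EupTs65Dn. The part of these markers in the gaps of Hhip and Shh was not tested.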
